A study of Homo sapiens with 6 samples.

Results

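The semaphorins, plexins, ephrins and Eph receptors are cell surface and secreted guidance proteins, and their transcripts were followed in SW839, an established human renal cell carcinoma (RCC) line. Members were taken by gene symbol, which found 51 of the 30267 genes in the expression table, namely 20 semaphorins of classes 3 to 7, 9 plexins, 8 ephrins and 14 Eph receptors. Bulk RNA-seq had been performed on 6 libraries of total RNA, 3 from cells with shRNA against the E3 ubiquitin ligase RNF25 (shRNF25) and 3 from cells with the pLKO vector (shControl), and the comparison asks which transcripts differ once RNF25 is depleted. Both groups share the cell line and the shRNA treatment label. The labels speak of transfection with a plasmid and the study's methods of lines made by viral infection and selection, and the series calls the libraries biological triplicates without naming the cultures behind them. Whether the numbers in the shRNF25 titles mark cultures or different hairpins is not stated there, and they were taken as replicates. No second line, rescue or untransduced sample is among these 6 libraries.

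Semaphorins are ligands that steer cell movement and axon growth. Those of class 3 are secreted, those of classes 4 to 6 span the membrane, and SEMA7A is held by a lipid anchor. Plexins are their receptors, and most class 3 semaphorins need a neuropilin beside the plexin. Ephrins and Eph receptor tyrosine kinases sit on neighbouring cells and signal in both directions on contact, with ephrin-A ligands lipid-anchored and ephrin-B ligands spanning the membrane. In the kidney these proteins are known for shaping the branching epithelium, the glomerulus and the vessels, and in tumors for roles in adhesion and migration.

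Each value below is a normalized count, the number of reads on a gene divided by its library's DESeq2 size factor. That factor is a scaling between libraries and does not follow the total of reads alone. Values are listed in the order of replicates 1, 2 and 3, and a mean is followed by its SD over 3 libraries. RNF25 itself, the target of the shRNA, was at 694, 534 and 536 in shControl and 214, 246 and 265 in shRNF25 and fell in every shRNF25 library (log2 fold change -1.27 ± 0.15 (SE), adjusted p = 0.000585). Between 18647460 and 19943154 reads per library had been counted on genes. Pearson's r of log2 values was between 0.9761 and 0.9875 among the shControl libraries and between 0.9941 and 0.9944 among the shRNF25 libraries, so the control libraries stood further apart. Of the RCC markers, 8 were measured, with KRT8, KRT18 and EPCAM at high levels, VIM higher in shRNF25 (355 ± 133 in shControl and 832 ± 43.4 in shRNF25, log2 fold change 1.31 ± 0.262 (SE), adjusted p = 0.00805), PAX8 at 127 ± 11.6 in shControl and 94 ± 16.5 in shRNF25 and CA9 at only 23.6 ± 23.6 in shControl and 4.94 ± 3.18 in shRNF25. NDUFA4L2 was at 24.4 ± 11 in shControl and 21.2 ± 9.64 in shRNF25, and CDH6 at 5.0 ± 6.96 in shControl and 6.21 ± 2.37 in shRNF25 was too low to test. The summed level of the list, mostly KRT8 and KRT18, was 44478 to 54975 in shControl and 58081 to 62260 in shRNF25. The leukocyte markers summed to at most 25.7 in any library, and none of the markers measured was at 0 in all 6 libraries. Endothelial markers summed to 467 to 681 in shControl and 414 to 559 in shRNF25, and fibroblast markers, mostly COL1A1, to 1107 to 1291 and 865 to 1012. In bulk RNA, fewer cells that make a transcript and less of it per cell cannot be told apart.

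Of the 51 members, 46 passed the filter on low values and were tested with limma among 16554 genes, and 15 of them (32.6%) met the call criteria, which are an adjusted p under 0.05 together with a change of 1.5-fold or more, against 15.7% of all tested genes. SEMA3F, SEMA6D, PLXNA2, PLXNA4, EPHA5 and EPHB1 rose, which is 6 of 46 members (13.0%) against 8.65% of tested genes. Of these 6, SEMA6D, EPHA5 and EPHB1 passed the filter only through their shRNF25 libraries, so their entry into the counts depended on being high there. SEMA3A, SEMA3B, SEMA4G, SEMA7A, PLXND1, EFNA3, EFNA5, EFNB2 and EPHB2 fell, which is 9 of 46 (19.6%) against 7.10%. By adjusted p alone 39.1% of the tested members passed, against 21.3% of all tested genes, and the 3 added ones were SEMA4A (higher), EFNB3 and SEMA6B (lower). The groups did not overlap for 31 members, 16 higher and 15 lower in shRNF25, and 42.5% of all tested genes had no overlap. The median log2 fold change was 0.04 over the tested members and -0.01 over all tested genes, while the median size of the change without its sign was 0.49 and 0.28. By count, 2 of 26 tested semaphorins and ephrins rose and 7 fell. Of 20 tested plexins and Eph receptors, 4 rose and 2 fell. SEMA6D is among those ligands that rose, and EPHA5 and EPHB1 among those receptors, so these counts depend on the filter too. The difference in counts between ligands and receptors was not tested. For a single gene the exact permutation test of 3 against 3 libraries cannot give a two-sided p below 0.1, and every called member was at that value.

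**Figure D1:**
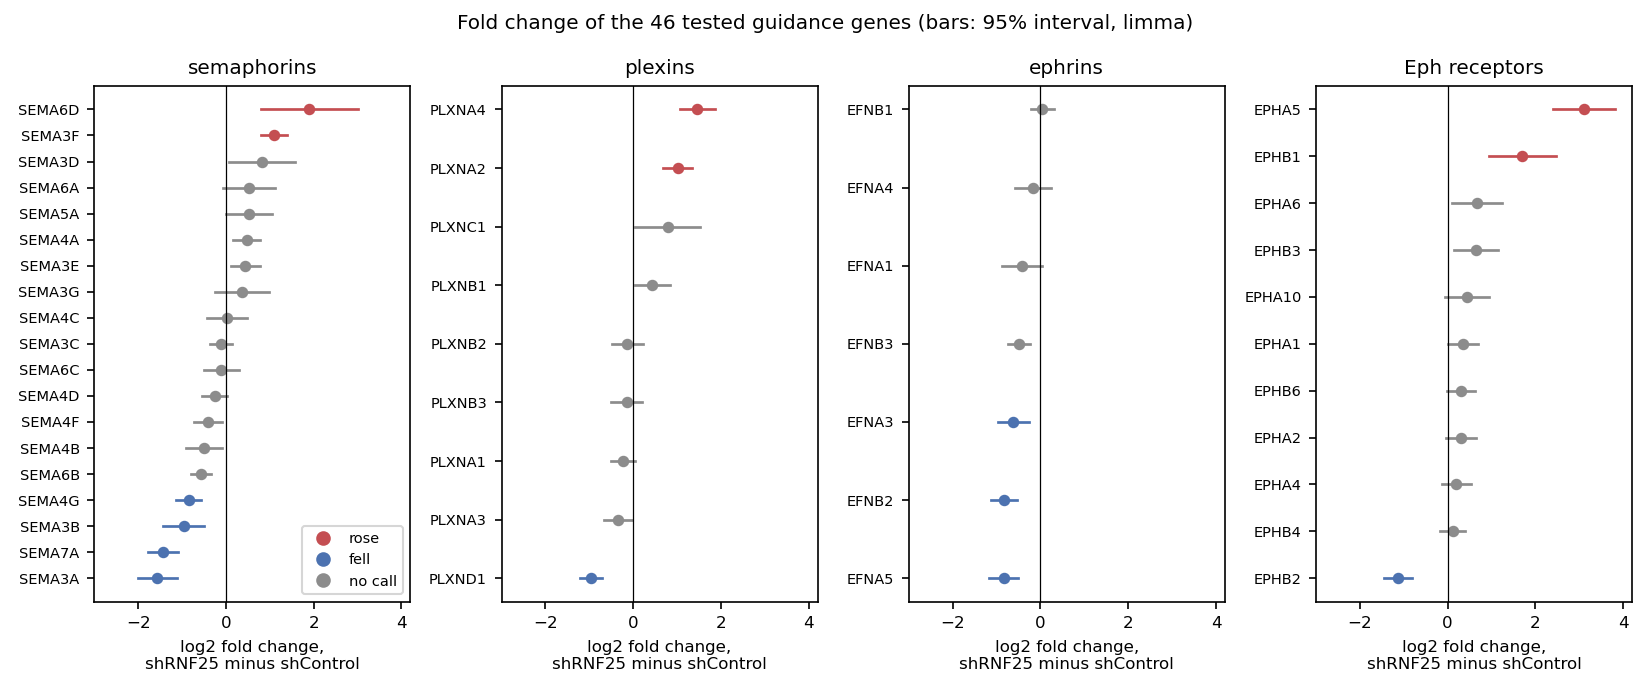
Log2 fold change of shRNF25 against shControl for the 46 tested members, ordered within each family, with bars for the 95% interval from limma. Members called higher and lower stand on both sides of 0 in the semaphorins, plexins and Eph receptors, and the 3 called ephrins all lie below 0.

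For the members at the center of the results with a RefSeq window, the start region is shown here so that the letters stand beside the measurements. Each run holds 300 bases of GRCh38.p14 from RefSeq, from 250 bases before to 50 bases after the first listed start, written 5′ to 3′ on the gene's strand, and capitals mark a match to the NF-κB consensus, the factor the study is about. SEMA3F (chr3:50154808-50155107, plus strand) rose among the secreted semaphorins, SEMA7A (chr15:74433909-74434208, minus strand) fell among the membrane-bound semaphorins, EPHB2 (chr1:22710588-22710887, plus strand) fell among the Eph receptors, and EPHA5 (chr4:65670440-65670739, minus strand) and EPHB1 (chr3:134795010-134795309, plus strand) rose. The RefSeq start of EPHB1 lies inside the longer gene span of GENCODE 29.
SEMA3F promoter: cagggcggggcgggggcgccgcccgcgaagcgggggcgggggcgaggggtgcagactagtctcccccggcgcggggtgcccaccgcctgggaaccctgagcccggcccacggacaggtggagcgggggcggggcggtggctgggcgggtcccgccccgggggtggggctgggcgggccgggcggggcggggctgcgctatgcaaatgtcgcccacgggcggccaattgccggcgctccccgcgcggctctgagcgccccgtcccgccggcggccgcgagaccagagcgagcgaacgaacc
SEMA7A promoter: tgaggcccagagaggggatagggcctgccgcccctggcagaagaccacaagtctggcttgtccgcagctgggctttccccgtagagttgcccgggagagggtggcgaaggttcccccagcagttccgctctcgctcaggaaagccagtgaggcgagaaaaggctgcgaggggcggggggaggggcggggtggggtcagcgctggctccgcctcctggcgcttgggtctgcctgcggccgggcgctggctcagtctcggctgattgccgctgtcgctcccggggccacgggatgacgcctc
EPHB2 promoter: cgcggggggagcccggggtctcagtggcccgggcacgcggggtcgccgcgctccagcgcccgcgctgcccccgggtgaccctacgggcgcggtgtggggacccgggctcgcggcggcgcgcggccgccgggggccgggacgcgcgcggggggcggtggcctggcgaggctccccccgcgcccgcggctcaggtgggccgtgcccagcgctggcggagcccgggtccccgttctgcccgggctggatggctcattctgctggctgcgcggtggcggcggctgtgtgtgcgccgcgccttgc
EPHA5 promoter: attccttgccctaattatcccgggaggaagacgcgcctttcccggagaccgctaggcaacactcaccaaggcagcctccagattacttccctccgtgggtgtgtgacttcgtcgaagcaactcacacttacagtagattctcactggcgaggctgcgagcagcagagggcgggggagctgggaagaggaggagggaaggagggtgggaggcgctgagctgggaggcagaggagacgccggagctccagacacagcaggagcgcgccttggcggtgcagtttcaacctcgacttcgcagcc
EPHB1 promoter: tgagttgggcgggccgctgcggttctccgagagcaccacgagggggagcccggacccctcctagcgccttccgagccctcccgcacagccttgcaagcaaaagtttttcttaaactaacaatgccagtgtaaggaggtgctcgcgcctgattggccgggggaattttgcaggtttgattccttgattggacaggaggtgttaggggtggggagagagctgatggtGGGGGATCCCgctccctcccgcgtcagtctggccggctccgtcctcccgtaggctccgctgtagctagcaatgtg
The windows of SEMA3F and EPHB2 hold 44 and 49 CG dinucleotides, that of SEMA7A holds 23, and those of EPHA5 and EPHB1 hold 19 each.

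Among the secreted class 3 semaphorins 1 of 7 rose (14.3%) and 2 fell (28.6%), against 8.65% and 7.10% of all tested genes. SEMA3A, the classic repellent of growing axons that signals through neuropilin-1 and A-type plexins, was at 2799, 1889 and 1513 in shControl and 667, 687 and 670.1 in shRNF25. Every shRNF25 library lay below every shControl library, and the shRNF25 mean was 32.6% of the shControl mean (log2 fold change -1.57 ± 0.196 (SE), adjusted p = 0.000834). SEMA3F, which prefers neuropilin-2, moved the other way, with 3518, 3828 and 2834 in shControl and 7627, 7006 and 7012 in shRNF25. All 3 shRNF25 libraries were above the highest control, at 213% of the control mean (log2 fold change 1.10 ± 0.128 (SE), adjusted p = 0.000559). SEMA3B, a secreted semaphorin studied as a tumor suppressor, was at 612, 851 and 1133 in shControl and 494, 388 and 419 in shRNF25. The shRNF25 libraries were again all below the controls, which themselves differed widely (log2 fold change -0.96 ± 0.209 (SE), adjusted p = 0.0116).

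SEMA3F and SEMA3B are neighbours on the plus strand of chromosome 3, at chr3:50155045-50189075 and chr3:50267558-50277546 (GRCh38, GENCODE 29), with 78.5 kb between them, and they moved in opposite directions. SEMA3A (chr7:83955777-84492724, minus strand) lies 306.7 kb from SEMA3E and 502.8 kb from SEMA3D on chromosome 7, and neither of these neighbours met the criteria. SEMA3E, a ligand that binds PLXND1 without a neuropilin, had a log2 fold change of 0.44 ± 0.146 (SE) with an adjusted p of 0.0609. SEMA3D was at 168, 92.3 and 55 in shControl and 162, 176 and 169 in shRNF25, so the shRNF25 libraries were close to shControl replicate 1 and above the others (log2 fold change 0.82 ± 0.333 (SE), adjusted p = 0.112). SEMA3C, which guides the cardiac outflow tract, differed by -0.11 on the log2 scale with a 95% interval of -0.37 to 0.14, and SEMA3G by 0.37 (adjusted p = 0.377).

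Per kilobase of merged exon, the scale on which genes can be set side by side, SEMA3F was at 703 ± 105 in shControl and 1495 ± 73.9 in shRNF25 and SEMA3A at 221 ± 70.6 in shControl and 72 ± 1.15 in shRNF25. The ratio of SEMA3F to SEMA3A on this scale was 2.44, 3.94 and 3.64 in shControl and 22.2, 19.8 and 20.3 in shRNF25, and no control library came near the shRNF25 ratios. The 7 class 3 genes summed to 1386 ± 100.3 in shControl and 1949 ± 86.3 in shRNF25 per kb, so that the sum was 141% of the control. SEMA3F made up 50.6% ± 4.94 in shControl and 76.7% ± 0.416 in shRNF25 of that sum, SEMA3A 15.7% ± 4.08 in shControl and 3.7% ± 0.203 in shRNF25, and SEMA3B 11% ± 4.13 in shControl and 3.85% ± 0.316 in shRNF25. These ratios and shares were computed after the single values were seen and are given as a description.

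**Figure D2:**
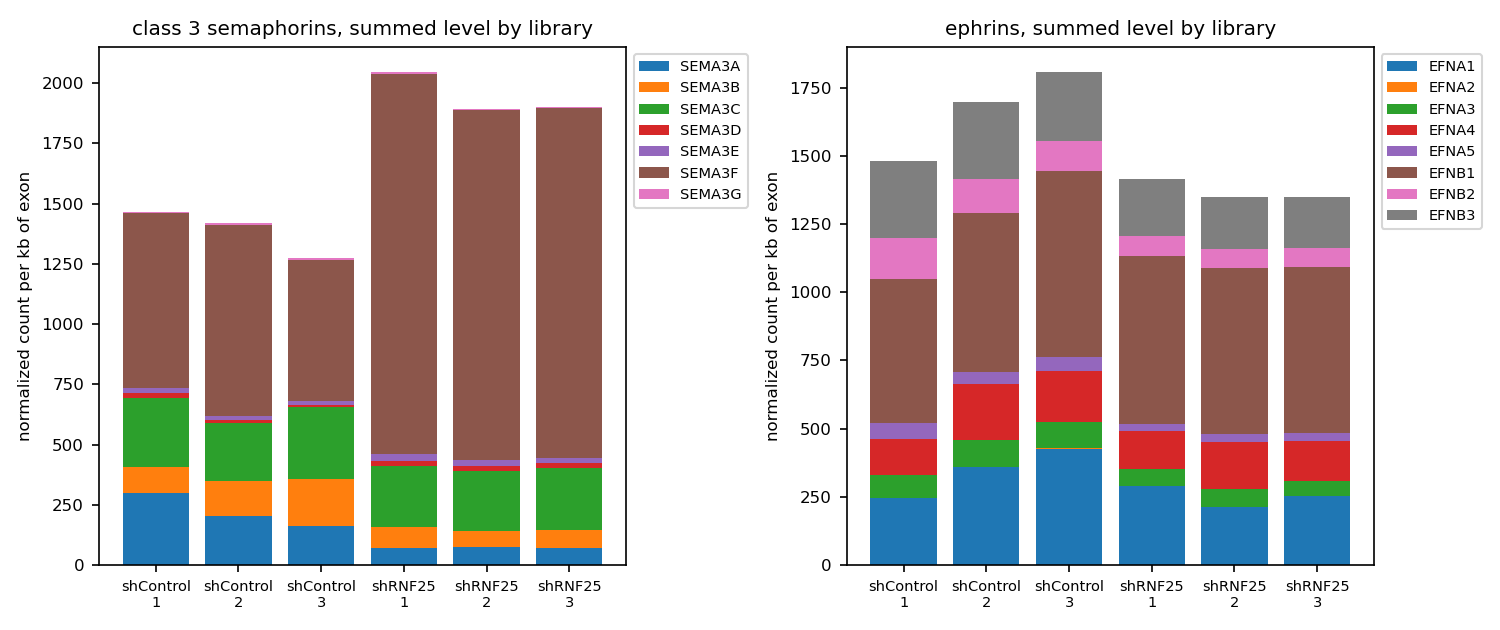
Normalized counts per kb of exon stacked by gene for the class 3 semaphorins (left) and the ephrins (right), with 1 bar for each library. SEMA3F makes up more of the class 3 bar in the 3 shRNF25 libraries (76.7% on average against 50.6%), and the ephrin bars of shRNF25 are all lower than those of shControl.

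Of the membrane-bound semaphorins, SEMA7A fell the furthest. This lipid-anchored ligand of integrins and PLXNC1 was at 2451, 3242 and 3824 in shControl and 1158, 1157 and 1150.5 in shRNF25. The 3 shRNF25 values were nearly equal and all under the lowest control, at 36.4% of the control mean (log2 fold change -1.43 ± 0.154 (SE), adjusted p = 0.000376). PLXNC1, its plexin, was expressed at a low level, with 16.6, 9.23 and 21.6 in shControl and 29.2, 23.1 and 27.6 in shRNF25 and an adjusted p of 0.122. SEMA4G, a membrane-spanning class 4 protein, was at 405, 367 and 409 in shControl and 239, 205 and 209 in shRNF25, with no overlap between the groups (log2 fold change -0.85 ± 0.128 (SE), adjusted p = 0.002). Of its exon bases 22.3% lie opposite exons of MRPL43, which was itself at 888 in shControl and 749.7 in shRNF25, and whether counting used the strand is not given in the sources used here.

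SEMA6D, a class 6 ligand of A-type plexins, rose from a low level, with 15.5, 15.4 and 3.24 in shControl and 40.1, 38.8 and 35.3 in shRNF25. Control replicate 3 held only 3 reads, and SEMA6D passed the filter on low values through its shRNF25 libraries (log2 fold change 1.90 ± 0.491 (SE), adjusted p = 0.0243). SEMA6B, the most abundant class 6 gene, was at 2042, 2224 and 2220.1 in shControl and 1511, 1455 and 1399 in shRNF25 and passed the adjusted p (0.00406) with a log2 fold change of -0.57 ± 0.099 (SE), short of 1.5-fold. SEMA4A, known for regulating T cells, passed in the other direction and also short of it, with 180.2, 195 and 208 in shControl and 249, 289 and 271 in shRNF25 (log2 fold change 0.47 ± 0.133 (SE), adjusted p = 0.0351). The other membrane-bound semaphorins did not pass. Their log2 fold changes ran from -0.50 for SEMA4B to 0.53 for SEMA5A and 0.53 for SEMA6A, with -0.41 for SEMA4F, -0.11 for SEMA6C and -0.26 for SEMA4D, the PLXNB1 ligand also known as CD100. SEMA4C, a PLXNB2 ligand, had 0.03 with an interval of -0.42 to 0.49. SEMA5B was not tested, with 2, 0 and 6 reads in shControl and 0, 0 and 0 in shRNF25.

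**Figure D3:**
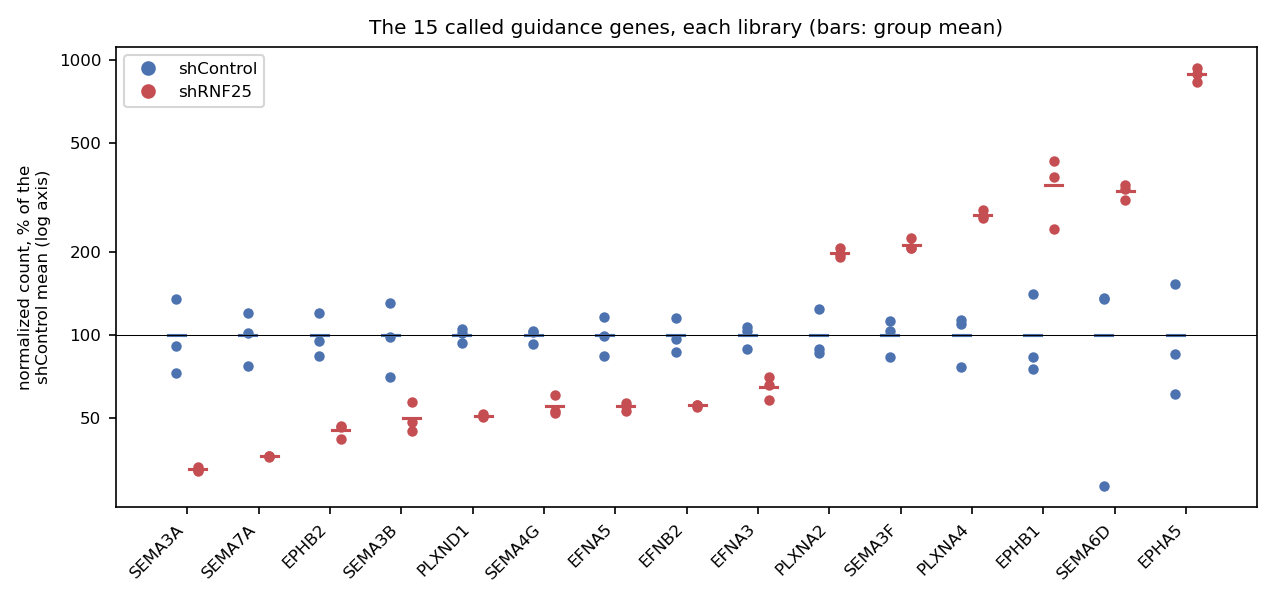
Normalized count of the 15 called members in each of the 6 libraries as a percent of the gene's shControl mean, on a log axis, with a short bar at each group's mean. The groups are separate for every gene, from SEMA3A at 32.6% to EPHA5 at 884.2% of the control mean.

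Of the 9 plexins 2 rose (22.2%) and 1 fell (11.1%), against 8.65% and 7.10% of all tested genes. PLXNA2, a receptor for class 6 and, with neuropilins, class 3 semaphorins, was at 469.8, 456 and 657 in shControl and 1038, 1096 and 1016 in shRNF25. The shRNF25 libraries were all above the highest control (log2 fold change 1.01 ± 0.151 (SE), adjusted p = 0.002). PLXNA4, its relative in the same type, was at 94, 97.5 and 65.8 in shControl and 245, 228 and 232 in shRNF25, or 274% of control (log2 fold change 1.46 ± 0.179 (SE), adjusted p = 0.000737). Both remained small contributors per length: PLXNA2 held 6.02% ± 0.65 in shControl and 13.2% ± 0.596 in shRNF25 of the summed A-type level per kb and PLXNA4 0.852% ± 0.268 in shControl and 2.49% ± 0.0707 in shRNF25, whereas PLXNA1 held 60.9% ± 2.35 in shControl and 56.6% ± 0.749 in shRNF25. PLXNA1 and PLXNA3 had log2 fold changes of -0.23 and -0.35 (adjusted p = 0.2 and 0.11), and the A-type sum was 634 ± 95.4 in shControl and 576 ± 5.58 in shRNF25 per kb.

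PLXND1, the SEMA3E receptor best known from blood vessels, was at 824, 926 and 896 in shControl and 457, 451 and 444 in shRNF25. The shRNF25 libraries lay within a narrow band below all controls, at 51.1% of the control mean (log2 fold change -0.96 ± 0.107 (SE), adjusted p = 0.000454). The endothelial marker CDH5 was lower as well, at 73, 103 and 199 in shControl and 3.64, 8.31 and 5.72 in shRNF25, while PECAM1 was at 400.3 ± 59.7 in shControl and 452 ± 84.7 in shRNF25, and the part of such genes in the PLXND1 value was not tested. PLXNB2 was the most abundant plexin per length, at 1019 ± 234 in shControl and 918 ± 14.2 in shRNF25 per kb, with a log2 fold change of -0.13 and an interval of -0.48 to 0.23. PLXNB1, the SEMA4D receptor, had 0.44 (adjusted p = 0.114) and PLXNB3 -0.15 (adjusted p = 0.526). Exons of SRPK3 on the same strand share 20.4% of the PLXNB3 exon bases, and SRPK3 was itself higher, at 47.9 in shControl and 109 in shRNF25 (log2 fold change 1.18 ± 0.226 (SE), adjusted p = 0.00648).

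No ephrin rose, against 8.65% of all tested genes, and 3 of 7 tested ephrins (42.9%) fell, against 7.10%. EFNB2, the ligand of EPHB4 that marks arteries, was at 744, 625 and 561 in shControl and 361, 353 and 360.3 in shRNF25. All 3 shRNF25 libraries were below all controls (log2 fold change -0.83 ± 0.132 (SE), adjusted p = 0.00263). An antisense gene, AL138689.2, lies opposite 26.2% of its exon bases and was at 15.3 in shControl and 8.05 in shRNF25. EFNA5, an ephrin-A ligand that guides retinal axons, was at 348, 252 and 299 in shControl and 159.5, 171 and 167 in shRNF25, again without overlap (log2 fold change -0.84 ± 0.151 (SE), adjusted p = 0.00479). EFNA3 was at 158, 189 and 184 in shControl and 117, 125 and 103 in shRNF25 (log2 fold change -0.62 ± 0.153 (SE), adjusted p = 0.02), with every shRNF25 library below every control. A readthrough gene on the same strand, AL691442.1, shares 44.7% of the EFNA3 exon bases and 15% of those of EFNA4. It is not among the measured genes under that name, so its part in the EFNA3 reads could not be checked. The EFNA3 call was lost in 4 of the 6 fits that left out a library, with adjusted p up to 0.108 without shRNF25 replicate 3.

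EFNA4, EFNA3 and EFNA1 follow each other on the plus strand of chromosome 1 with gaps of 9.32 and 39.9 kb, and their log2 fold changes were -0.17, -0.62 and -0.42. EFNA1, the main ligand of EPHA2, was at 628, 914 and 1079 in shControl and 734, 544 and 642 in shRNF25, so that shControl replicate 1 lay among the shRNF25 libraries (adjusted p = 0.164). EFNB3 passed the adjusted p at 0.0149 but was short of 1.5-fold, with 914, 908 and 814 in shControl and 672, 614 and 596 in shRNF25 (log2 fold change -0.49 ± 0.112 (SE)). EFNB1, the ephrin with the highest level per length, was at 598 ± 77.3 in shControl and 610.5 ± 4.18 in shRNF25 per kb with an interval for its log2 fold change of -0.22 to 0.30. Its share of the ephrin sum was 35.9% ± 1.63 in shControl and 44.6% ± 0.929 in shRNF25, and that sum was 1662 ± 166 in shControl and 1370.4 ± 37.9 in shRNF25 per kb. EFNA2 was not tested, with 0, 0 and 2 reads in shControl and 1, 0 and 1 in shRNF25.

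Among the Eph receptors 2 of 11 tested genes rose (18.2%) and 1 fell (9.09%), against 8.65% and 7.10% of all tested genes. The ones that rose, EPHA5 and EPHB1, were scarce and passed the filter only through their shRNF25 libraries. Their count and their low control level therefore depend in part on the filter. EPHA5, an ephrin-A receptor of the nervous system, was at 15.5, 6.16 and 8.63 in shControl and 83.8, 94.2 and 89.6 in shRNF25. Each shRNF25 library was several times above every control, and the shRNF25 mean was 884% of the control mean (log2 fold change 3.11 ± 0.312 (SE), adjusted p = 0.000262). Its antisense gene EPHA5-AS1, which covers 5.4% of the EPHA5 exon bases, had a mean of 0.728 in shControl and 6.23 in shRNF25. EPHA5-AS1 was too low to test, with 1, 0 and 1 reads in shControl and 3, 8 and 9 in shRNF25. EPHB1, a receptor for ephrin-B ligands, was at 12.2, 7.18 and 6.48 in shControl and 21, 36.9 and 32.4 in shRNF25, without overlap but on 6 to 40 reads per library (log2 fold change 1.70 ± 0.34 (SE), adjusted p = 0.00783). Even after the increase EPHA5 was at 9.07 and EPHB1 at 4.33 per kb.

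EPHB2, an ephrin-B receptor known for ordering cells along the intestinal crypt, was at 1536, 1745 and 2198 in shControl and 769, 857 and 850.2 in shRNF25. The shRNF25 libraries were all below the controls, at 45.2% of their mean (log2 fold change -1.13 ± 0.142 (SE), adjusted p = 0.000845). EPHB3, its relative with overlapping functions, was at 201, 316 and 400.4 in shControl and 498, 431 and 459 in shRNF25, above the controls in every shRNF25 library but with an adjusted p of 0.0693 (log2 fold change 0.65 ± 0.224 (SE)). It met the criteria without shControl replicate 3 and in DESeq2. The ratio of EPHB3 to EPHB2 per kb was 0.362, 0.5 and 0.503 in shControl and 1.79, 1.39 and 1.49 in shRNF25. This ratio, too, was computed after the single values were seen and is given as a description. EPHB4, the receptor of EFNB2, had a log2 fold change of 0.11 with an interval of -0.17 to 0.39, and EPHB6, which lacks kinase activity, 0.30 (adjusted p = 0.16).

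EPHA2, a receptor widely expressed in carcinomas, had the highest level per kb of all 51 members in both groups, at 2888 ± 615 in shControl and 3505 ± 128 in shRNF25. By library its normalized count was 9498, 11918 and 14612 in shControl and 14055, 14564 and 15116 in shRNF25, so shControl replicate 3 lay inside the shRNF25 range and replicates 1 and 2 below it (log2 fold change 0.30 ± 0.153 (SE), adjusted p = 0.193). It held 68% ± 1.65 in shControl and 70.3% ± 0.818 in shRNF25 of the Eph receptor sum. EPHA1, EPHA4, EPHA6 and EPHA10 did not pass, with log2 fold changes of 0.34, 0.20, 0.67 and 0.45. EPHA3, EPHA7 and EPHA8 were not tested, with at most 12 reads in any library.

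**Figure D4:**
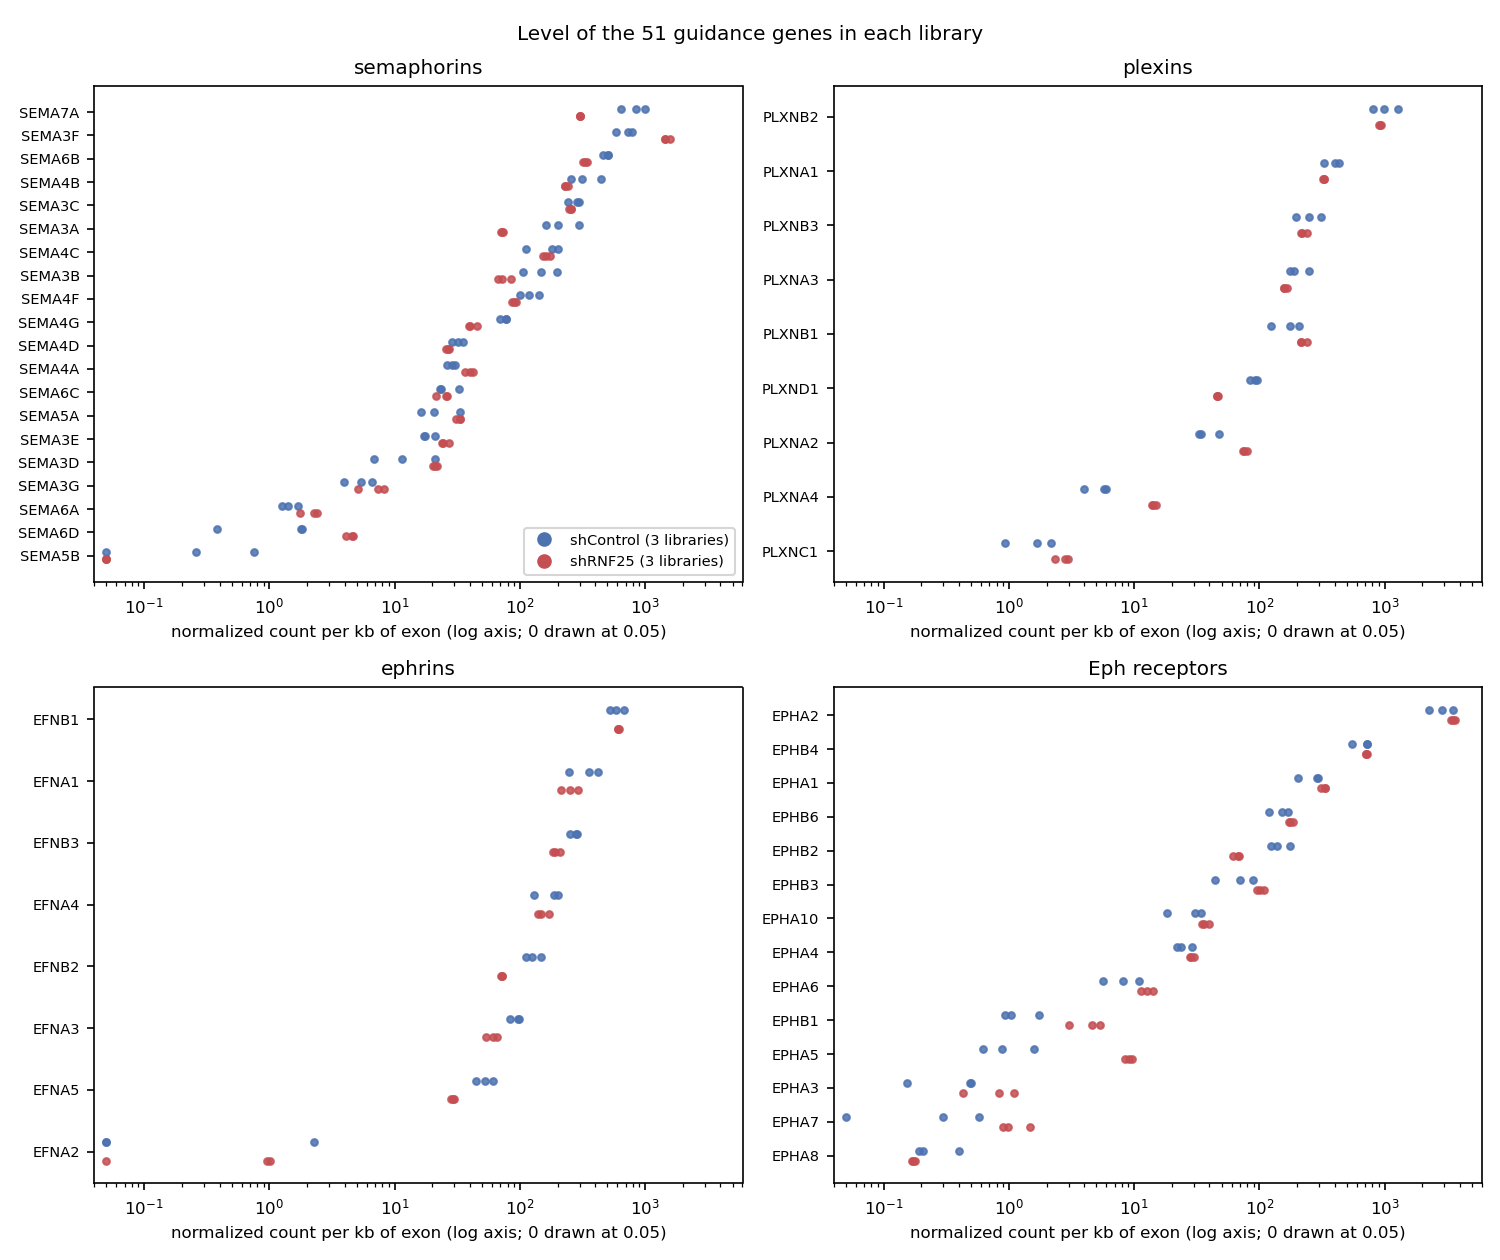
Normalized count per kb of exon of all 51 members on a log axis, 1 point for each library, with genes ordered by level within each family and a value of 0 drawn at 0.05. EPHA2 is the highest in both groups, and EPHA5, EPHB1 and SEMA6D, which rose, stay under 10 in every library.

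The order of the most abundant members changed below EPHA2. In shControl it was followed by PLXNB2 at 1019 ± 234, SEMA7A at 835 ± 181, SEMA3F at 703 ± 105, EPHB4 at 666 ± 99.4 and EFNB1 at 598 ± 77.3 per kb, and from PLXNB2 on, neighbours in this order differed by less than the sum of their SDs. In shRNF25 SEMA3F came next to EPHA2, at 1495 ± 73.9, and SEMA7A had dropped to 304 ± 1.09. The called members differed in gene length too. The 6 that rose spanned a median of 438.2 kb of genome, 5 of them over 100 kb, the 9 that fell 45.9 kb with 3 over 100 kb, and the 31 uncalled 29.6 kb with 9 over 100 kb. Their median shControl level was 48.6, 865.4 and 780.7 normalized counts in that order. Of the 6 that rose, SEMA6D, EPHA5 and EPHB1 passed the filter only through their shRNF25 libraries. A low control level in that group is therefore partly set by the filter. These genes span 590.1, 350.9 and 662.7 kb, so the median span depends on them too. No test was made of these differences between groups of members.

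The pathway lists held 86 genes, of which 84 were measured. Of 13 co-receptors and partners of semaphorins measured, 11 were tested, 2 rose and 1 fell. That is 27.3% called, against 15.7% of all tested genes. NRP1, the co-receptor of SEMA3A, was at 11277, 11541 and 12431 in shControl and 17589.5, 18184 and 18617 in shRNF25 and rose in every shRNF25 library (log2 fold change 0.63 ± 0.101 (SE), adjusted p = 0.0029). NRP2, the co-receptor of SEMA3F, was at 408, 336 and 485 in shControl and 286, 302 and 278 in shRNF25, all shRNF25 libraries below the controls, and passed the adjusted p at 0.0496 short of 1.5-fold. In these 2 pairs ligand and co-receptor differed in opposite directions, SEMA3A lower with NRP1 higher, and SEMA3F higher with NRP2 lower. NRP2 was not called, however. SEMA3B, the other called secreted semaphorin, was lower (log2 fold change -0.96), in the same direction as NRP2 (-0.49). SEMA3C, SEMA3D, SEMA3E and SEMA3G did not pass, and a general pattern of ligands and co-receptors was not tested. L1CAM, an adhesion molecule that joins NRP1 in the SEMA3A receptor, fell, with 652, 814 and 926 in shControl and 371, 345 and 321 in shRNF25 (log2 fold change -1.19 ± 0.148 (SE), adjusted p = 0.000803). KDR, a VEGF receptor that also partners plexins, rose from a low level, with 26.5, 29.8 and 17.3 in shControl and 88.4, 81.3 and 83.9 in shRNF25 (log2 fold change 1.78 ± 0.237 (SE), adjusted p = 0.00116), in the libraries in which the endothelial gene CDH5 was lower, and no test of a link between them was made. MET, a partner of B-type plexins, had a log2 fold change of 0.07 (interval -0.28 to 0.41).

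Of 46 plexin and Eph signaling proteins measured, 44 were tested and 4 (9.09%) were called, against 15.7% of all tested genes. CHN1, a Rac regulator downstream of EPHA4, fell with a log2 fold change of -0.71 ± 0.22 (SE) and an adjusted p of 0.0496, a call lost under 8 of 15 alternatives. GRIP1 and PTPN13, which bind ephrin-B tails, rose by 0.64 ± 0.165 (SE) and 0.71 ± 0.124 (SE) on the log2 scale (adjusted p = 0.0231 and 0.00423), and the GRIP1 call was lost under 5 of 15 alternatives. Of the other guidance ligands and receptors 18 of 25 measured were tested, 5 rose and 3 fell. That is 44.4% called, against 15.7% of all tested genes. SLIT2, a ligand of ROBO receptors, was at 2022, 1837 and 1629.7 in shControl and 2767, 3021 and 3071 in shRNF25 (log2 fold change 0.69 ± 0.114 (SE), adjusted p = 0.00315), and SLIT1, UNC5C, FLRT1 and NTNG1 also rose, by 1.70, 1.40, 1.67 and 0.81. SLIT1, UNC5C and FLRT1 passed the filter on low values only through their shRNF25 libraries, so the 44.4% depends in part on their being high there. RGMA and RGMB, ligands of the receptor neogenin, fell by 1.38 and 0.59, and the netrin NTN4 fell by 0.73 on the log2 scale. Of these 8 calls, SLIT2 and RGMA held under all 15 alternatives at these criteria, NTN4, NTNG1, SLIT1, UNC5C and FLRT1 were lost in fits without a library (SLIT1 also with quantile scaling), and RGMB fell short of 1.5-fold under 8 of 15.

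RefSeq start windows were held for 46 of the 51 members, and none for EFNB3, EPHA10, SEMA3A, SEMA6A or SEMA6B. Searched on both strands, the NF-κB consensus was in the windows of EFNA2, EPHA3, EPHB1, PLXNA1 and SEMA6D, which is 5 of 46, and in 10.8% of all 27305 windows. By call it was in 2 of 6 members that rose and in 0 of the 8 that fell and had a window. Those 2, EPHB1 and SEMA6D, passed the filter on low values only through their shRNF25 libraries, so this contrast depends on the filter. Over any listed start the NF-κB consensus was in 10 members, adding EPHA6, SEMA3B, SEMA3F, SEMA4A and SEMA4B, so that 1 member that fell and another that rose then held a match. The share over any listed start was not computed for all genes. The 10.8% counts only 1 window for each gene, so the 10 members cannot be set against it. The AP-1 letters TGANTCA were found in PLXNC1 alone of the members and in 7.76% of all windows. The hypoxia response core ACGTG was in 8 members, PLXNA4, SEMA6D and SEMA3B among the called ones, and in 21.6% of all windows, and the cAMP response element TGACGTCA in EPHA2 and SEMA4C and in 1.98% of all. None of these letters is part of another of the motifs. The members' windows held a median of 22 CG dinucleotides, against 14 over all windows, with 24 in those of members that rose and 37.5 in those that fell. The members that rose include SEMA6D, EPHA5 and EPHB1, so their median depends on the filter too. A match is a run of letters and does not say that a factor binds.

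The spread between libraries bears on these results. The median coefficient of variation of the tested members was 20.3% in shControl and 4.84% in shRNF25 (18.2% and 6.7% over all tested genes), and it was the larger in shControl for 42 of 46. Control replicate 1 was the lowest of its group for 27 members and replicate 3 the highest for 25. Without shControl replicate 3, 11 members rather than 6 met the criteria for higher, the added ones being EPHA6, EPHB3, PLXNB1, PLXNC1 and SEMA5A. Without shControl replicate 1, EFNA1, SEMA4B and SEMA6B met those for lower (log2 fold change -0.64, -0.68 and -0.61) and SEMA3D those for higher (1.23). SEMA6B also met them without shRNF25 replicate 1, SEMA3D with library weights, and EPHB3 with library weights and in DESeq2. Of the 15 called members, 12 kept their call under every alternative fit that tested them at the same criteria, and none changed sign. The exceptions were EFNA3, SEMA3B, which missed the threshold without shRNF25 replicate 2 or 3 (adjusted p = 0.056 and 0.0512), and SEMA6D, which missed it without any 1 of the shRNF25 replicates (adjusted p between 0.0738 and 0.0956).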

How the data were processed

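Total RNA of SW839 cells, 3 shRNF25 and 3 shControl libraries, had been rRNA-depleted and made into stranded libraries per the paper's methods. The submitters' processing notes name fastp, HISAT2, HTSeq and GRCh38; versions, annotation and strand setting are not given in the sources used here. Even the controls' treatment text names the shRNF25 plasmid, so groups rest on titles, genotype labels and library names. The authors deposited a normalized count, a signal that can be fractional, for each of 30267 genes, already divided by DESeq2 size factors. Dividing by the smallest step gave whole reads for 100% of values (tolerance 0.01), 18647460 to 19943154 per library. 0 columns of other samples were present.

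A pseudocount of 1 was added before taking log2, genes at 10 or more in at least 3 libraries were kept, and groups were compared with limma 3.58.1 (trended eBayes, R 4.3.3, no covariates), which was checked on simulated data. Adjusted p-values are Benjamini-Hochberg values over all 16554 genes. The call criteria, adjusted p under 0.05 with a change of 1.5-fold or more, are the study's. P-values measure only the spread between these libraries. Levels per kb divide by merged exon length in GENCODE 29. Alternatives were pseudocounts of 0.5 and 5, no filter and a minimum of 50, quantile scaling, library weights, edgeR 4.0.16 and DESeq2 1.42.0 on the recovered reads, a replicate block, each library left out, adjusted p alone and a fold change of 2. Members and pathway lists were chosen with earlier results of these data known. Named genes are every member, RNF25, NRP1, NRP2, MET and the pathway genes that met the criteria, except 1 signaling gene that is not reported here; CDH5, PECAM1 and genes that overlap members were named after their values were seen.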

Additional observations from a re-analysis of the deposited data

How the results depend on the processing

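The limits are 3 libraries a group, more spread among the controls and few reads on the scarce members. Counts called higher or lower among the members were 6 and 9, and leaving out each library in turn gave 5 to 11 (11 without shControl replicate 3) and 7 to 12. Requiring 2-fold left 3 lower members. Among the listed pathway genes, 9 higher and 6 lower, the ranges without 1 library were 4 to 9 (4 without shRNF25 replicate 3, 5 without replicate 2) and 3 to 8 (3 without shRNF25 replicate 2), requiring 2-fold left 4 and 3, and adjusted p alone gave 16 lower. Over all tested genes, 1432 were higher, 898 at a minimum of 50 and 748 to 1725 without 1 library (748, 824 and 831 without shRNF25 replicates 1, 2 and 3), and 1175 were lower, 813 to 1269 without 1 library. No called gene named in the text changed sign. Signs turned for uncalled genes near 0: without 1 library the log2 fold change ran from -0.05 to 0.14 for EFNB1, -0.02 to 0.18 for EPHB4, -0.28 to 0.05 for PLXNB2 (0.08 with quantile scaling), -0.32 to 0.01 for PLXNB3, -0.22 to 0.21 for SEMA4C, -0.20 to 0.05 for SEMA6C and -0.09 to 0.23 for MET; the cause was not tested. Deviations from the group mean correlated at -0.064, -0.087 and 0.047 between same-numbered libraries and at -0.139 to 0.183 between others. With 3 libraries a group these values cannot decide whether the numbers pair the libraries. A replicate block gave 7 higher members, with EPHB3 added, and 9 lower.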
